A study of Mus musculus with 23 samples.

Results

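The 45 genes described here encode the clathrin coat, its adaptors, the dynamins, the ESCRT complexes, the retromer and the sorting nexins of endocytosis and endosomal sorting. They were taken by symbol from the 32285 genes of the deposited matrix, and every one of the 45 was found. The study measured RNA in single brain cells of mice dosed with an antibody into a vein, to follow which brain cells the antibodies reach. Fluorescent label on the antibody was used to sort cells into negative, low, medium and high bins, and 23 libraries in 12 groups were analysed. An antibody transport vehicle (ATV) is an antibody whose Fc part was engineered to bind a receptor of brain capillaries.

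In the ATV-TfR group, TfR mu/hu KI mice, whose transferrin receptor is a mouse and human knock-in, had received DNP02_hIgG1_LALAPG_ATV35.23.2 coupled to Alexa647. In the ATV-CD98hc group, CD98hc mu/hu KI mice had received DNP02 LALAPG LLB2-10-8 monovalent coupled to Alexa647. The control group was C57BL/6 mice given DNP02_hIgG1_LALAPG_Alexa647, an antibody without a brain receptor. All mice were 12 weeks old (3.3 months in the labels), had received 45 mg/kg into the tail vein and were killed after 24 h, so genotype and treatment coincide in every comparison of treatments. All brains lacked olfactory bulb, cerebellum, pons and medulla and were dissociated with actinomycin D and anisomycin. A replicate is the pooled cells of 1 male and 1 female mouse, with 2 pools per treatment, and the control IgG negative bin has replicate 2 only. The bins were set by splitting the positive cells of ATV-TfR into 3 equal parts, and the same gates were used for the other treatments.

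Clathrin heavy and light chains build the lattice around a budding vesicle, AP-2 links that lattice to cargo at the plasma membrane, and dynamin cuts the neck of the bud. From the early endosome, ESCRT complexes sort ubiquitinated cargo to the lysosome, while retromer, sorting nexins and EHD proteins return cargo to the surface or the Golgi. The transferrin receptor is a classic cargo of clathrin-coated pits and of endosomal recycling, and sorting nexin 3 is known to take part in its recycling.

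Members were measured as UMIs, counts of captured RNA molecules, summed over the cells of a class and a library or pool. Levels are CPM values, the UMIs of a gene divided by the UMIs of all genes in that sum and scaled to a common total. The libraries held 1861238 to 90307818 UMIs, with a median of 2178 to 4968 UMIs per cell, and 233476 cells were kept. Classes were named by fixed marker lists, so names end in -like: 97340 cells were endothelial-like, 91332 astrocyte-like, 11899 microglia-like and 6283 oligodendrocyte-like. The endothelial marker list summed to between 26805 and 28598 CPM in the endothelial-like pools and to 486 to 591 CPM in the astrocyte-like pools. Astrocyte markers summed to 214 to 4562 CPM in the microglia-like pools, against 21447 to 22899 CPM in the astrocyte-like pools, and oligodendrocyte markers to 673 to 1039 CPM in the endothelial-like pools, and their part in the class comparisons was not tested. Of the 6 endothelial-like pools, ATV-CD98hc replicate 1 and control IgG replicate 2 stood apart from the other 4 in several members. Control IgG replicate 1, which has no negative library, held 30 microglia-like cells over its other bins, which limits its microglia-like values. Of 256352 distinct barcode sequences, 8510 occurred in more than 1 library.

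Of the 4 members that edgeR called between the high and negative ATV-TfR bins of endothelial-like cells, the 3 with an entry in the RefSeq promoter table (GRCm38.p6) are shown by the 250 bases before their start. Capitals mark a GC box, GGGCGG or CCGCCC on the other strand, and the lines run 5′ to 3′ on the strand of the gene. The Dnm2 window is chr9:21424658-21424907 on the plus strand, the Snx3 window chr10:42501804-42502053 on the plus strand and the Ehd4 window chr2:120154576-120154825 on the minus strand.
Dnm2: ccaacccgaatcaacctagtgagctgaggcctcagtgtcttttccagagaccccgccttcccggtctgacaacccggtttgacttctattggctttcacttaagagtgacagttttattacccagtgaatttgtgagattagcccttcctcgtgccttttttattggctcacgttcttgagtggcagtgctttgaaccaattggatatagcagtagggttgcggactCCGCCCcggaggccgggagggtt
Snx3: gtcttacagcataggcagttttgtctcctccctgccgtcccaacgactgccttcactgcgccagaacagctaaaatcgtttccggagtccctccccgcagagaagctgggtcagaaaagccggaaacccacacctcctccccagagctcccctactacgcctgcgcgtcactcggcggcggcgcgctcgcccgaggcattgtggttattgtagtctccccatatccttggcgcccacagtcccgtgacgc
Ehd4: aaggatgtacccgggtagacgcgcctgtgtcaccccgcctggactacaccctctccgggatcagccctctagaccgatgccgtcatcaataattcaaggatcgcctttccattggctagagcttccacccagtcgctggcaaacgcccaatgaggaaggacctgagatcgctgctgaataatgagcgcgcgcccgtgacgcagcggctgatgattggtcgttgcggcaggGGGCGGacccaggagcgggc
Dnm2 and Ehd4 each held 1 GC box in this window and Snx3 held none. The table matched 40 of the 45 members, and the entries missing were Ap1m1, Vps35, Snx2, Snx27 and Ehd1. A GC box was found in 23 of the 40 windows (57.5%), against 32.9% of 27025 windows of all genes. CACGTG was found in 5 member windows, those of Ap2m1, Epn1, Picalm, Snx5 and Vps26a (12.5% against 6.05% of all). CCGGAAGT was found in 3, those of Ap2s1, Snx17 and Tsg101 (7.5% against 2.93%). Both strands were searched, CCGGAAGT and the GC box can overlap at their shared bases, and a match describes the sequence only.

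The first comparison set the machinery of endothelial-like cells beside that of every other class. Class sums held all bins, and the classes filled the bins unequally. In ATV-TfR replicate 1 the high bin had 16606 endothelial-like and 18 microglia-like cells, and the negative bin 78 and 2824. Sums of the negative and low bins only were an alternative. The members as a whole were not an endothelial set: summed over all 45, they took 5262 ± 122 CPM of endothelial-like UMIs (SD over 6 pools), 5142 ± 282 in microglia-like cells (n = 6), 5369 ± 181 in oligodendrocyte-like cells (n = 5) and 3104 ± 40 in astrocyte-like cells (n = 5). Border macrophage-like cells held the most, with 7333 ± 509 CPM. RNA make-up also differed: ribosomal genes took 5.1% to 8.1% of UMIs in endothelial-like and 0.99% to 1.66% in astrocyte-like library sums. Malat1 took at most 2.45% in the endothelial-like and at least 4.22% in the astrocyte-like library sums. The part of this make-up in the astrocyte-like total and in the comparisons with astrocyte-like cells was not tested. Among 12 classes, endothelial-like cells had the highest level of 4 members, Cltb, Ap2b1, Ap1s1 and Snx3, where 8.57% of all 13064 genes with a mean of 5 CPM or more over the classes had their highest level there. They were among the 3 highest classes for 13 members, against 23.7% of all genes. Of the 44 members at or above that floor, 2, Ap3d1 and Eps15, were in rank 10 to 12, against 27.2% of all genes. Dnm1, below the floor, was also there. Border macrophage-like and oligodendrocyte-like cells each had the highest level of 10 members, and microglia-like cells that of 8.

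**Figure D1:**
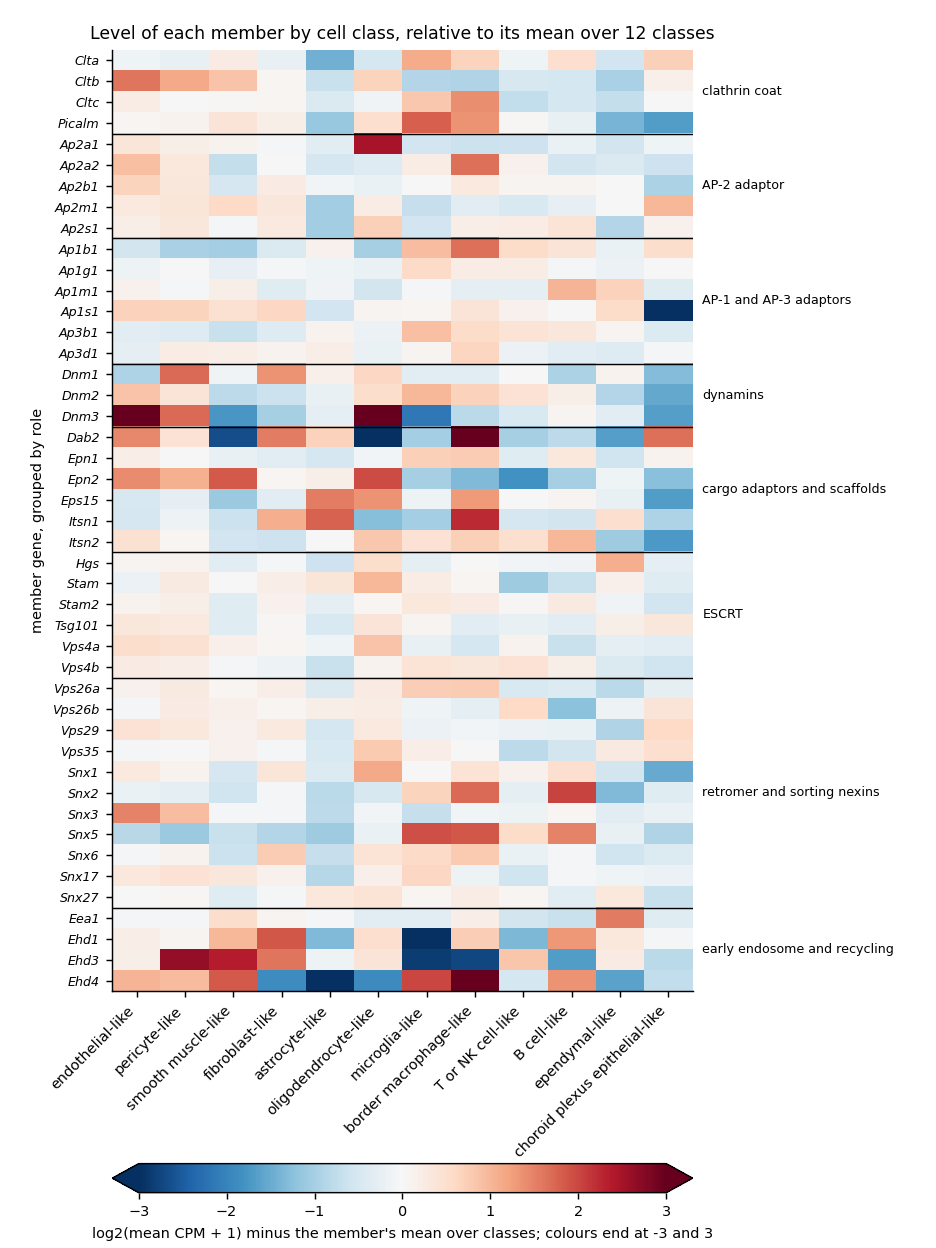
Each row is a member and each column a cell class; the colour is log2(mean CPM + 1) over pools minus the member's mean over the 12 classes, with the colour scale ending at -3 and 3. Snx3 and Cltb are reddest in endothelial-like cells, Ap2a1 in oligodendrocyte-like cells, and Dab2 and Ehd4 in border macrophage-like cells.

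Snx3, the retromer-linked nexin, was the most abundant member in endothelial-like cells. Its level there was 567 and 765 CPM in ATV-CD98hc replicates 1 and 2, 763 and 587 in the control IgG pools and 766 and 776 in the ATV-TfR pools. The microglia-like pools had 157, 144, 194, 132, 147 and 141 CPM in that order, the oligodendrocyte-like pools 204 to 265 and the astrocyte-like pools 132 to 159. The lowest endothelial-like pool lay above every pool of the other 3 classes. The log2 fold change of Snx3 was 2.52 against microglia-like (SE 0.13, adjusted p = 6.7e-23), 1.55 against oligodendrocyte-like (SE 0.13, adjusted p = 1.4e-14) and 2.45 against astrocyte-like cells (SE 0.14, adjusted p = 4.6e-21), by edgeR's quasi-likelihood test with Benjamini-Hochberg adjustment over 19315 genes.

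The same fit called 21 members higher and 12 lower in endothelial-like than in microglia-like cells, where 34.7% of all genes were higher and 34.4% lower. The median over the members was 0.17 on the log2 scale and that over all genes tested was 0. Against oligodendrocyte-like cells 12 members were higher and 20 lower (all genes 32.9% and 32.3%), with a median of -0.09 beside 0.04 over all genes. Against astrocyte-like cells 34 were higher and 7 lower (all genes 36.3% and 43.0%), with a median of 0.87 beside -0.19. RLE in place of TMM factors moved the median of all genes by -0.23, -0.16 and -0.41 in these comparisons. The split of members was then 19 to 19 against microglia-like cells (all genes 28.8% and 40.5%), 9 to 23 against oligodendrocyte-like cells (28.0% and 37.5%) and 28 to 11 against astrocyte-like cells (27.9% and 53.4%). Leaving out each pool in turn called 29 to 36, 24 to 33 and 38 to 42 members. Without control IgG replicate 2, 7 members rather than 12 were lower than in microglia-like cells, and without ATV-TfR replicate 2, 4 rather than 7 were lower than in astrocyte-like cells.

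**Figure D2:**
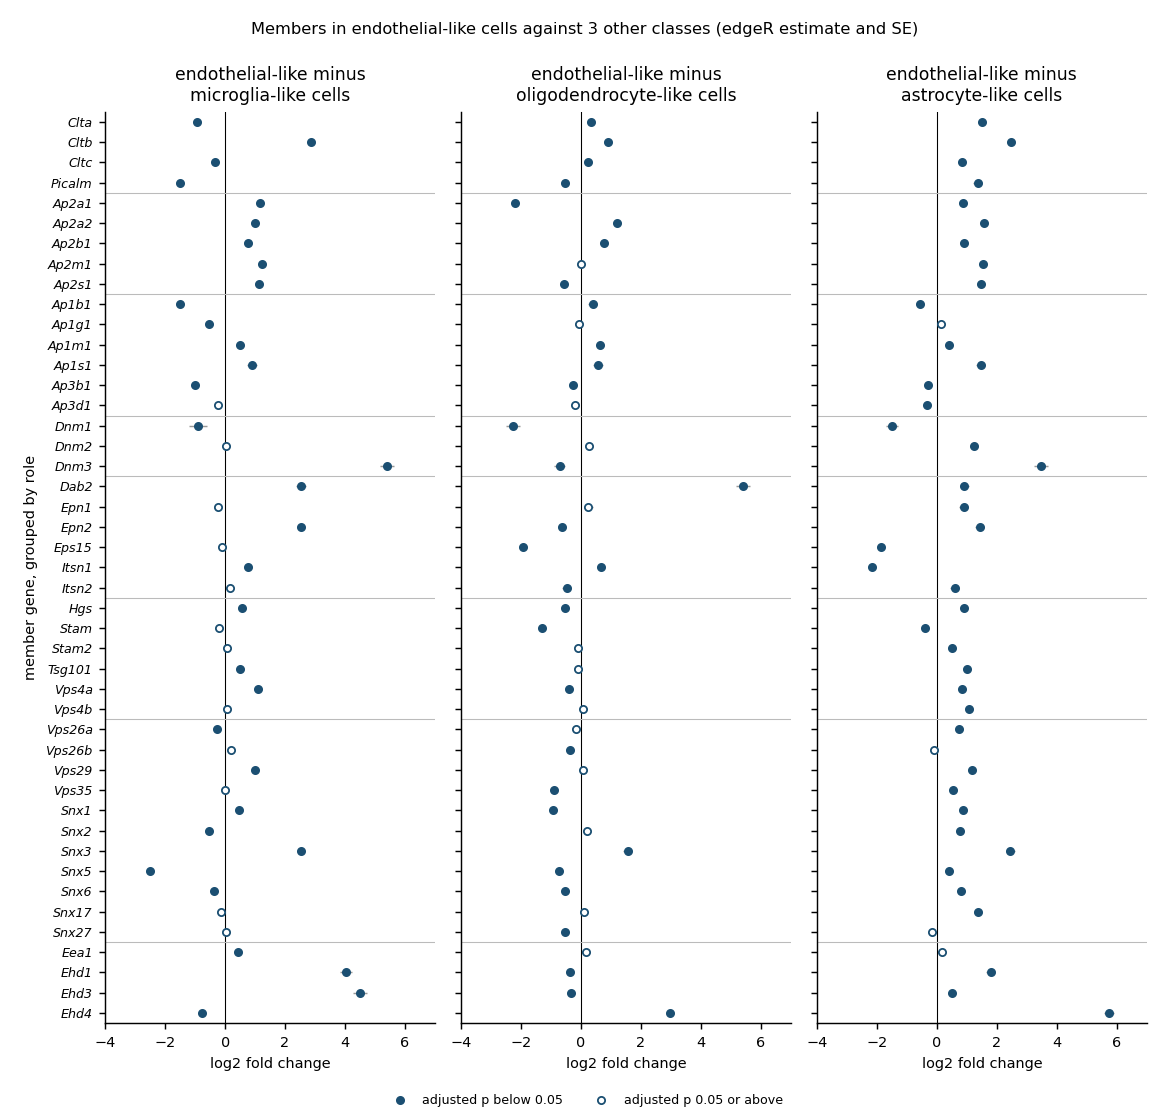
Points are edgeR log2 fold changes of each member in endothelial-like cells minus microglia-like, oligodendrocyte-like or astrocyte-like cells, with bars of 1 SE; filled points have an adjusted p below 0.05. All 5 AP-2 members lie right of 0 against microglia-like and astrocyte-like cells, and Cltb and Snx3 lie right of 0 in all 3 panels.

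The clathrin coat members differed among themselves. Cltb, a clathrin light chain, was at 184, 218, 200, 177, 232 and 233 CPM in the endothelial-like pools (ATV-CD98hc 1 and 2, control IgG 1 and 2, ATV-TfR 1 and 2). The microglia-like pools in the same order had 34.2, 35.1, 48.5, 30.9, 33.4 and 32.9 CPM, the oligodendrocyte-like pools 102 to 115 and the astrocyte-like pools 40.3 to 43.9, so endothelial-like pools did not overlap with any of these. Cltb was higher in endothelial-like cells by 2.88 against microglia-like (SE 0.12, adjusted p = 5.1e-26), 0.89 against oligodendrocyte-like and 2.47 against astrocyte-like cells on the log2 scale. Clta, the other light chain, went the other way against microglia-like cells, with means of 281 and 661 CPM (log2 fold change -0.94). Picalm, which sets the size of coated vesicles and binds SNARE cargo, was likewise lower than in microglia-like cells (171 ± 23 against 571 ± 128 CPM, log2 fold change -1.52), as was the heavy chain Cltc (250 ± 10 against 378 ± 38 CPM, -0.33, adjusted p = 0.0014). Leaving out ATV-TfR replicate 2 ended the call for Cltc against microglia-like cells (adjusted p = 0.12). All 4 coat members were higher than in astrocyte-like cells. Against oligodendrocyte-like cells 3 were higher and Picalm lower, and this split was 1 to 1 under RLE factors and without either ATV-TfR pool.

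The 5 AP-2 subunits shared a direction against microglia-like and astrocyte-like cells. Each was higher than in microglia-like cells, by 0.76 (Ap2b1) to 1.24 (Ap2m1, SE 0.12, adjusted p = 1.6e-13), and higher than in astrocyte-like cells, by 0.87 (Ap2a1) to 1.59 (Ap2a2), on the log2 scale. These 5 calls stood under every scaling and without each pool in turn. Ap2m1, the subunit that reads tyrosine sorting signals such as that of the transferrin receptor, was at 114 to 145 CPM in the 6 endothelial-like pools, 58.2 to 73.0 in the microglia-like and 44.3 to 56.5 in the astrocyte-like pools. Oligodendrocyte-like pools had 115 to 140 CPM of Ap2m1, which overlaps the endothelial-like range. Against oligodendrocyte-like cells Ap2a2 (1.21) and Ap2b1 (0.76) were higher, while Ap2a1 (-2.19, SE 0.09, adjusted p = 2.6e-26) and Ap2s1 (-0.56) were lower. Ap2a1 was at 65.9 to 73.9 CPM in endothelial-like and 282 to 353 CPM in oligodendrocyte-like pools.

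Among AP-1 and AP-3 subunits, which work at the Golgi and endosomes, Ap1s1 and Ap1m1 were higher than in microglia-like cells and Ap1b1, Ap1g1 and Ap3b1 were lower. The log2 fold change of Ap1b1 was -1.52 there, and 2.98 with an adjusted p of 0.63 without control IgG replicate 2, which leaves the 30 cells of replicate 1 as the only control microglia-like sum. Against astrocyte-like cells Ap1s1 (1.46) and Ap1m1 (0.40) were higher and Ap1b1 (-0.56), Ap3d1 (-0.33) and Ap3b1 (-0.28) lower. The call of Ap3d1 ended without ATV-TfR replicate 2 (adjusted p = 0.15) or ATV-CD98hc replicate 2 (adjusted p = 0.053), and that of Ap3b1 without ATV-TfR replicate 1 (adjusted p = 0.059), ATV-TfR replicate 2 (adjusted p = 0.21) or ATV-CD98hc replicate 2 (adjusted p = 0.16). Against oligodendrocyte-like cells 3 were higher, led by Ap1m1 (0.64), and Ap3b1 was lower (-0.26).

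Of the dynamins, Dnm2 is the form present in most tissues, and Dnm1 and Dnm3 are known best from neurons. Dnm3 was at 646, 349, 476, 654, 380 and 332 CPM in the endothelial-like pools, in the order used above, and 0 to 21.9 CPM in the microglia-like and 43.3 to 48.7 CPM in the astrocyte-like pools. Endothelial-like pools did not overlap with either class, and ATV-CD98hc replicate 1 and control IgG replicate 2 were the highest of the 6. The log2 fold change of Dnm3 was 5.41 against microglia-like (SE 0.25, adjusted p = 5.5e-25) and 3.49 against astrocyte-like cells, and -0.71 against oligodendrocyte-like cells, whose pools had 559 to 861 CPM. Dnm3 shares its locus with Dnm3os on the other strand, which was at a mean of 0.82 CPM in endothelial-like cells. Dnm2 was at 244 ± 11 CPM (n = 6) in endothelial-like cells, higher than in astrocyte-like cells (1.25), with 0.03 against microglia-like cells (adjusted p = 0.87) and 0.26 against oligodendrocyte-like cells (adjusted p = 0.079). Without control IgG replicate 2 the value of Dnm3 against microglia-like cells was 8.78. Dnm1 was at 0.83 CPM in endothelial-like cells and lower than in oligodendrocyte-like and astrocyte-like cells. Against microglia-like cells it was also called lower, but the value was 1.20 (adjusted p = 1.0) without control IgG replicate 2, and the call ended without ATV-TfR replicate 2 (adjusted p = 0.052) and in the negative and low bins only (-0.38, adjusted p = 0.43).

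Cargo adaptors and scaffolds went both ways. Dab2, an adaptor of LDL receptor family cargo, was at 96.4 to 138 CPM in the endothelial-like pools, 0 to 26.5 in the microglia-like and 1.31 to 5.41 in the oligodendrocyte-like pools. Its log2 fold change was 5.40 against oligodendrocyte-like cells (SE 0.23, adjusted p = 5.7e-26), 2.53 against microglia-like and 0.92 against astrocyte-like cells, with 6.37 against microglia-like cells without control IgG replicate 2, and its highest class was border macrophage-like (1060 CPM). Epn2, an epsin that bends membrane, was higher than in microglia-like (2.53) and astrocyte-like cells (1.42) and lower than in oligodendrocyte-like cells (-0.63). Itsn1, a scaffold that gathers coat proteins, was at 40.4 to 76.1 CPM in endothelial-like and 247 to 283 CPM in astrocyte-like pools, which did not overlap (log2 fold change -2.18, SE 0.13, adjusted p = 8.8e-21). Eps15, a scaffold at the rim of coated pits, was also lower than in astrocyte-like (-1.87) and oligodendrocyte-like cells (-1.94).

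For the 6 ESCRT members the comparison depended on the class. Hgs, which captures ubiquitinated cargo, was at 36.1 ± 2.2 CPM in endothelial-like cells, with log2 fold changes of 0.55 against microglia-like, 0.91 against astrocyte-like and -0.54 against oligodendrocyte-like cells, the first being 0.23 with an adjusted p of 0.14 when low genes were not filtered out. Tsg101 of ESCRT-I and the ATPase Vps4a were higher than in microglia-like (0.50 and 1.10) and astrocyte-like cells (0.99 and 0.84). Stam, the partner of Hgs, was lower than in astrocyte-like (-0.40) and oligodendrocyte-like cells (-1.30), the former not called without ATV-TfR replicate 2 (-0.32, adjusted p = 0.062). Against microglia-like cells 3 were higher and none lower, or 2 and 1 under RLE factors, where Tsg101 had an adjusted p of 0.054 (0.28 with no filter), and against oligodendrocyte-like cells none was higher and 3 were lower.

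Retromer and the other sorting nexins differed by the class compared. Vps35, the core of retromer, was at 109 ± 6.1 CPM, with 0.01 against microglia-like (adjusted p = 1.0), -0.91 against oligodendrocyte-like and 0.55 against astrocyte-like cells, the last not called under RLE factors (adjusted p = 0.30). Snx5, a nexin with a BAR domain, was at 47.6 to 51.7 CPM in endothelial-like and 289 to 408 CPM in microglia-like pools, which did not overlap (-2.50, SE 0.13, adjusted p = 2.8e-22). Of the 11 members, 3 were higher and 4 lower than in microglia-like cells (3 and 7 under RLE factors), 1 and 6 against oligodendrocyte-like cells, and 9 and 0 against astrocyte-like cells (7 and 2 under RLE factors). Snx17, the nexin of LDL receptor recycling, was higher than in astrocyte-like cells (1.37), and Snx27, which links cargo to retromer, was lower than in oligodendrocyte-like cells (-0.53).

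The EHD ATPases, which shape recycling tubules, differed from class to class. Ehd4 was at 94.1, 92.5, 79.1, 91.2, 96.2 and 89.7 CPM in the endothelial-like pools, and 155 to 196 CPM in microglia-like, 9.72 to 11.8 in oligodendrocyte-like and 1.33 to 2.79 in astrocyte-like pools. None of these ranges over all bins overlapped. In the ATV-TfR negative bin alone, Ehd4 was at 196 and 230 CPM in endothelial-like and 202 and 189 CPM in microglia-like cells, which overlap. Over 17 alternatives, among them the negative and low bins only, Ehd4 ran from -1.08 to -0.48 against microglia-like cells on the log2 scale. Its log2 fold change was 5.74 against astrocyte-like cells (SE 0.16, adjusted p = 3.7e-33), 2.96 against oligodendrocyte-like and -0.77 against microglia-like cells. Ehd1 was higher than in microglia-like (4.04) and astrocyte-like cells (1.80) and lower than in oligodendrocyte-like cells (-0.37). Without control IgG replicate 2 the value of Ehd1 against microglia-like cells was 6.93. The call of Ehd1 against oligodendrocyte-like cells ended without ATV-TfR replicate 1 or 2 (adjusted p = 0.17 and 0.15) or ATV-CD98hc replicate 1 or 2 (adjusted p = 0.090 and 0.10), with no factors, with sums of at least 50 cells and at Leiden resolution 0.5 (adjusted p = 0.47). Restricting all classes to the negative and low bins gave 0.10 for that contrast of Ehd1. Ehd3 was higher than in microglia-like cells (4.50, with 0 to 2.38 CPM in the microglia-like pools, and 8.90 among cells with at most 2 UMIs of other classes' markers) and astrocyte-like cells (0.49). Eea1, the early endosome tether, was higher than in microglia-like cells (0.44), and RLE factors ended that call (adjusted p = 0.12) and that of Ehd3 against astrocyte-like cells (adjusted p = 0.70).

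Shares within sets of paralogues compare the same genes across classes, and each share also depends on how well each paralogue is captured. Cltb took 42.5% ± 2.4 of the light chain UMIs in endothelial-like (SD, n = 6), 5.2% ± 0.5 in microglia-like (n = 6), 33.2% ± 1.3 in oligodendrocyte-like (n = 5) and 27.2% ± 0.4 in astrocyte-like cells (n = 5). Dnm3 took 64.8% ± 6.0 of dynamin UMIs in endothelial-like, 3.8% ± 2.3 in microglia-like, 77.4% ± 3.7 in oligodendrocyte-like and 27.8% ± 1.4 in astrocyte-like cells. Ehd4 took 60.8% ± 4.7, 97.8% ± 1.7, 13.5% ± 1.4 and 7.1% ± 2.3 of EHD UMIs in these classes. Among intersectins, Itsn1 was the larger part in astrocyte-like cells alone of these classes (68.3% ± 0.5), against 24.3% ± 5.3 in endothelial-like cells. Its highest level of any class was in border macrophage-like cells (376 CPM). Of AP-2 alpha subunits, Ap2a1 took 39.9% ± 1.3 in endothelial-like and 87.8% ± 1.7 in oligodendrocyte-like cells. Snx5 took 29.2% ± 0.9 of the Snx5 and Snx6 UMIs in endothelial-like and 64.6% ± 3.6 in microglia-like cells.

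**Figure D3:**
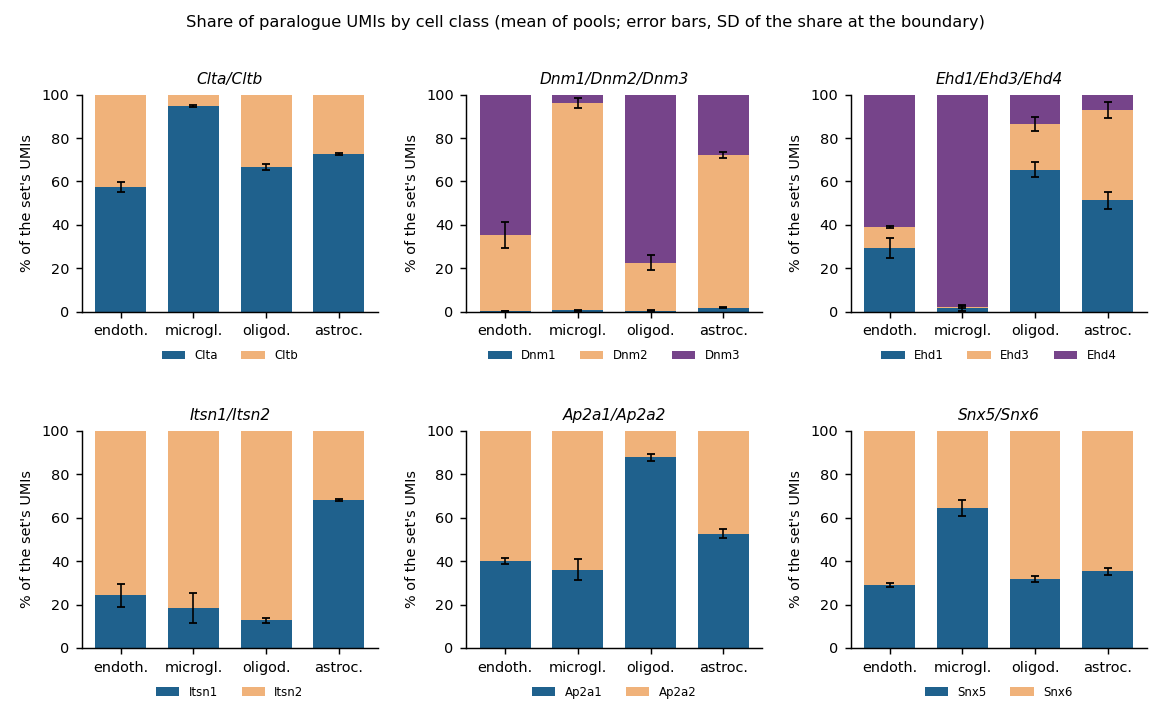
Stacked bars give each paralogue's share (percent) of the UMIs of its set in endothelial-like (endoth.), microglia-like (microgl.), oligodendrocyte-like (oligod.) and astrocyte-like (astroc.) cells as means over pools, with error bars of 1 SD at each boundary. Clta takes nearly all light chain UMIs in microglia-like cells, and the EHD sets differ in every class.

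Within endothelial-like cells, 7 clusters were compared by their mean over pools. For 38 of 45 members the highest cluster was less than 1.5 times the lowest, from 1.08 for Snx6 upward. The same ratio was not computed for all genes, so whether this is particular to the members was not tested. The wider members were Cltb (1.54), Ehd3 (1.74), Ehd4 (1.97), Dnm3 (2.25), Ehd1 (2.40), Itsn1 (3.03) and Dnm1, which ran from 0.545 to 3.05 CPM. Ehd4 and Ehd1 were highest in cluster 8, whose leading genes include Gkn3, Bmx and Sema3g: Ehd4 was at 145 CPM there and 73.9 CPM in cluster 1, and Ehd1 at 73.3 CPM there and 30.6 CPM in cluster 4. The members were left out of the variable genes from which the clusters were made. No test was run between clusters, so these values are a description.

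The next comparison asked whether the members of endothelial-like cells differed with the amount of antibody the cells carried. In ATV-TfR, the recycling genes Ehd1 and Ehd4 were lower in the high than in the negative bin, and Snx3 and Dnm2 were higher. Ehd4 was at 196 and 230 CPM in the negative, 208 and 184 in the low, 119 and 110 in the medium and 91.6 and 86.1 in the high bin, so the negative and low bins lay above the medium bin and that above the high bin in both pools. Ehd1 was at 105 and 103, 104 and 102, 65.4 and 68.6, and 41.0 and 45.4 CPM in the same bins, with the same separation. Snx3 went the other way, with 533 and 492, 606 and 581, 738 and 717, and 773 and 785 CPM. Dnm2 was at 204 and 119 in the negative and 248.5 and 230 CPM in the high bin, and its low bin values of 186 and 171 lay between those of the negative bin. The negative bin values rest on few UMIs, 38 and 25 for Ehd1, 71 and 56 for Ehd4, 193 and 120 for Snx3 and 74 and 29 for Dnm2, from 78 and 53 cells.

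In edgeR the high minus negative difference in ATV-TfR was -1.10 for Ehd4 (SE 0.19, adjusted p = 0.0004), -1.11 for Ehd1 (SE 0.28, adjusted p = 0.015), 0.69 for Dnm2 (SE 0.20, adjusted p = 0.044) and 0.76 for Snx3 (SE 0.23, adjusted p = 0.049) on the log2 scale. These 2 higher and 2 lower members compare with 1.85% and 4.28% of all 15082 genes tested, and the median over the members was 0.13, as over all genes. Without ATV-TfR replicate 1 or 2 no member was called, and without control IgG replicate 1 only the 2 lower ones were, and without control IgG replicate 2 Dnm2 was not (adjusted p = 0.055). RLE factors gave adjusted p of 0.18 for Snx3 and 0.16 for Dnm2 and their calls also ended with no factors, a stricter filter on low counts, stricter doublet removal and Leiden resolution 0.5. Of 16 alternatives in all, 5 called Dnm2, 7 Snx3, 12 Ehd1 and 14 Ehd4. Stricter doublet removal also ended the call of Ehd1 (-1.36, adjusted p = 0.067). DESeq2 called Dnm2 higher (adjusted p = 0.038) and Ehd1, Ehd4 and Ap2a2 (-0.56, adjusted p = 0.047) lower, where it called 192 of 15082 genes higher and 1313 lower, and gave an adjusted p of 0.12 for Snx3. High minus low in ATV-TfR called Ehd1 (-1.14, SE 0.23, adjusted p = 0.0012) and Ehd4 (-1.04, SE 0.17, adjusted p = 0.00012) lower and no member higher by edgeR, where 9.12% of all genes were lower. With the pool as a replicate block 4 were higher (Snx3, Dnm2, Dnm3 and Dab2; all genes 6.23%) and 2 lower (10.9%). Without ATV-TfR replicate 1 none was called, without replicate 2 only 1 was lower, and without ATV-CD98hc replicate 1 or 2, 3 or 4 were higher beside the 2 lower, where 778 of 14682 and 947 of 14843 genes were higher. Dnm2 was also called higher by DESeq2 (0.42, adjusted p = 0.0080; 397 of 15082 genes), with sums of at least 50 cells (adjusted p = 0.049), with stricter doublet removal (adjusted p = 0.038) and without control IgG replicate 1 (adjusted p = 0.039).

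**Figure D4:**
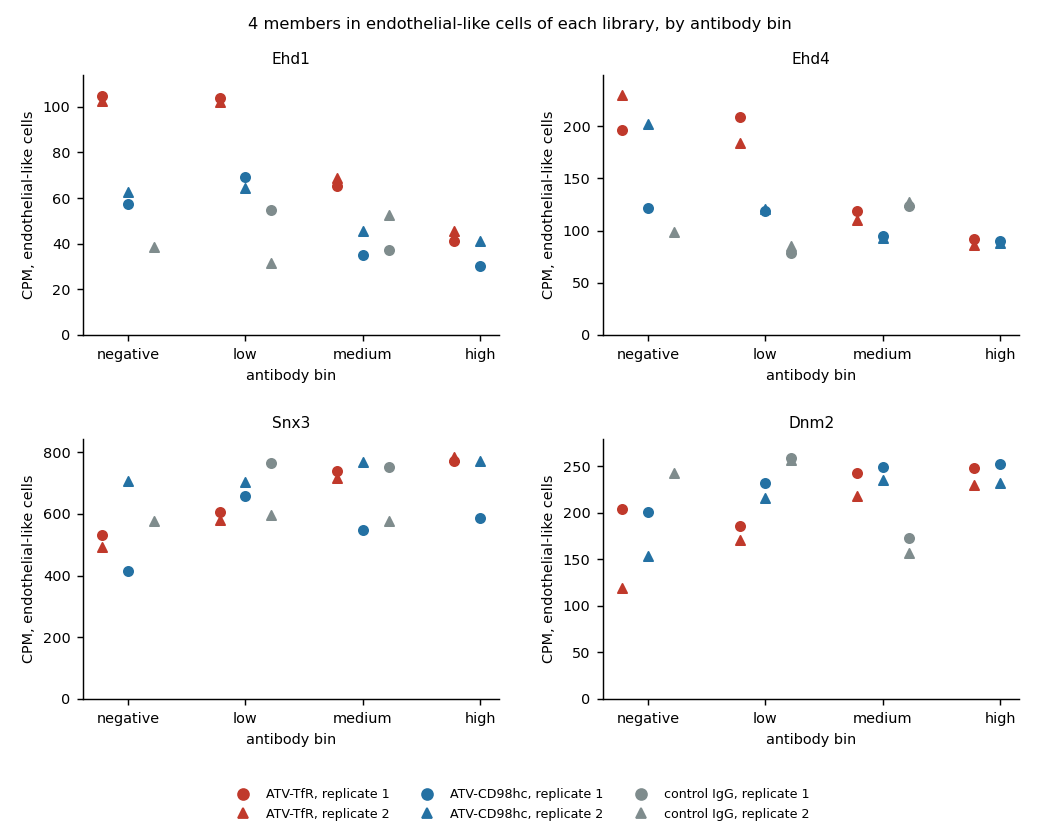
Each point is the level (CPM) of Ehd1, Ehd4, Snx3 or Dnm2 in the endothelial-like cells of 1 library, by antibody bin; colours are treatments and circles and triangles are replicates 1 and 2. Ehd1 and Ehd4 of ATV-TfR run from 102 to 230 CPM in the negative and low bins to 41.0 to 91.6 CPM in the high bin.

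In ATV-CD98hc, Ehd4 was at 122 and 203 CPM in the negative, 119 and 121 in the low, 94.9 and 93.0 in the medium and 90.3 and 88.2 in the high bin, and every high value lay below every negative value. Ehd1 was at 57.3 and 62.9, 69.4 and 64.6, 34.9 and 45.7, and 30.2 and 41.3 CPM, with both negative and both low values above every medium and high value. Snx3 was at 416 and 706 CPM in the negative and 588 and 771 in the high bin, which overlap. No member was called between high and negative by edgeR (all genes 4.11%), 6 had an unadjusted p below 0.05 (Cltc, Ap2m1, Dnm2, Dab2 and Ehd3 upward and Ehd4 downward; all genes 14.8%), and DESeq2 called 1 lower, Ehd4 (all genes 7.68%). The edgeR difference of Ehd4 was -0.64 (SE 0.22, adjusted p = 0.11), and RLE factors gave -0.82 with an adjusted p of 0.031. With the replicate block Snx3 (0.47, adjusted p = 0.043) and Dab2 (0.97, adjusted p = 0.0093) were higher (all genes 2.81%). High minus low called Ehd1 lower (-0.80, SE 0.21, adjusted p = 0.010), where 10.2% of all genes were lower. The block made that 3 higher (Dnm3, Dab2 and Itsn1; all genes 6.07%) and 2 lower (Ehd1 and Ehd4; 13.2%). The call ended without ATV-TfR replicate 1, ATV-TfR replicate 2 or ATV-CD98hc replicate 1, and without ATV-CD98hc replicate 2 there were 3 higher and 1 lower, where 404 and 1254 of 14843 genes were.

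The 2 ATV treatments were compared directly, and antibody and knock-in line cannot be told apart there. No member differed between the high minus negative contrasts of ATV-TfR and ATV-CD98hc by edgeR (0% of all genes) or DESeq2, and 3, Ap2b1, Hgs and Ehd3, had an unadjusted p below 0.05 (all genes 4.40%). That difference was -0.45 for Ehd4 (SE 0.28), -0.53 for Ehd1 (SE 0.44) and 0.29 for Snx3 (SE 0.33), and none passed the test, which does not show that the antibodies act alike. Between the high bins of both, no member was called by edgeR (all genes 0.139%) or DESeq2 and none had an unadjusted p below 0.05 (all genes 3.30%). Without ATV-CD98hc replicate 2, 4 were higher and 2 lower, where 854 and 688 of 14843 genes were, and the remaining ATV-CD98hc library is assumed to vary like the other groups. Over all bins, pools of the 3 treatments gave no called member in any pair by edgeR (0% of all genes each time). These pools differ in bins. Control IgG replicate 1 has no negative library and held 1026 endothelial-like cells in its low bin. Replicate 2 held 2384 in the negative and 2278 in the low bin, and the ATV-TfR pools held 16606 and 15360 in the high bin. The part of the bins in the comparisons of pools was not tested. For ATV-TfR against control IgG 1 member, Itsn1, had an unadjusted p below 0.05 (all genes 6.81%) and DESeq2 called it lower (-0.79, adjusted p = 0.031; all genes 0.747%), and without ATV-CD98hc replicate 1 edgeR called 1 member lower (55 of 17075 genes). Cluster 6 held 54.5% and 36.4% of the endothelial-like cells of the control IgG pools and 9.39% and 7.99% of those of the ATV-TfR pools. Itsn1 was at 83.4 CPM in that cluster, the highest of the 7 endothelial-like clusters, and lowest in cluster 8 (27.5 CPM). The part of this shift in the Itsn1 difference was not tested. For ATV-CD98hc against control IgG 1 member, again Itsn1, had an unadjusted p below 0.05 (all genes 4.15%), and for ATV-TfR against ATV-CD98hc none had (2.25%), and DESeq2 called no member in either pair. In control IgG the negative bin is 1 library, which is assumed to vary like the other groups. There low minus negative called no member by edgeR (all genes 4.22%) or DESeq2, and 1, Itsn1, had an unadjusted p below 0.05 (all genes 10.7%). With the block, where this contrast rests on 1 pair, Itsn1 had 0.83 (adjusted p = 0.00025; all genes higher 1.49%). Cluster 6 held 58.2% of the low bin's endothelial-like cells, while the negative bin was led by cluster 4 (28.0%), where Itsn1 was at 47.7 CPM, and the part of this was not tested either. In that contrast 1 member was called higher without ATV-CD98hc replicate 1 or 2, where 246 of 14682 and 255 of 14843 genes were. Ehd4 in that treatment was at 98.6 CPM in the single negative library and 78.5 and 85.2 in the low bin.

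Other measures moved across the same bins. Cluster 8 held 74.0% of the 131 endothelial-like cells of the ATV-TfR negative bin, 61.7% of its low bin and 59.7% of the 119 cells of the ATV-CD98hc negative bin. Cluster 1 led the high bins, with 30.9% in ATV-TfR and 25.1% in ATV-CD98hc. Within cluster 8 alone the ATV-TfR high minus negative difference was -1.05 for Ehd4 (adjusted p = 0.00094), 0.83 for Snx3 (adjusted p = 0.016), -0.95 for Ehd1 (adjusted p = 0.058) and 0.57 for Dnm2 (adjusted p = 0.18). Ehd4 in cluster 8 was at 254 and 296 CPM in the ATV-TfR negative bin (58 and 39 cells) and 128 and 120 CPM in the high bin. The 10 astrocyte markers summed to 559 to 1671 CPM in endothelial-like cells of the negative and low ATV bins and to 68 to 108 CPM in the high bins, with all 10 detected in the low and high bins and 8 or 9 in the negative bins, where Aqp4 was at 0 in 3 of 4 libraries and Gjb6 in 2. Astrocyte-like cells themselves held 2.00 CPM of Ehd4, 14.3 CPM of Ehd1 and 145 CPM of Snx3. Microglia-like pools held 155 to 196 CPM of Ehd4 and 0 to 6.13 CPM of Ehd1. The highest class was border macrophage-like for Ehd4 (459 CPM) and fibroblast-like for Ehd1 (139 CPM). The 8 smooth muscle markers summed to 130 to 267 CPM in the negative bins of both ATVs and the ATV-TfR low bin and to 39 to 60 CPM in the high bins, with Actg2 at 0 in each of these libraries. Erythroid markers reached 23563 CPM in ATV-CD98hc negative replicate 1. Cells with at most 2 UMIs of other classes' markers gave -1.03 for Ehd1 (adjusted p = 0.50) and 0.14 for Ehd4 (adjusted p = 0.93) in high minus low of ATV-TfR. Only 17560 of the 97340 endothelial-like cells met this limit, which cells of low depth pass more easily. The ATV-TfR low bin held 300 and 199 endothelial-like cells before it. The part of astrocyte, smooth muscle and erythroid RNA, or of RNA of other classes, in these differences was not tested.

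Astrocyte-like cells numbered 3538 in the ATV-TfR negative, 27701 in its low and 21901 in its medium bin, and few members differed between these bins. In ATV-TfR medium minus negative, Ap2m1 was higher (0.44, SE 0.12, adjusted p = 0.037; all genes 1.86%), with 44.4 and 44.7 CPM in the negative and 51.7 and 63.4 CPM in the medium bin, which do not overlap. Ehd4 was lower (-1.26, SE 0.29, adjusted p = 0.014; all genes 2.75%), at 2.84 and 2.95 against 1.23 and 1.07 CPM, from 20 and 23 against 59 and 52 UMIs. The block made this 3 higher (Cltc, Ap2m1 and Ap2s1; all genes 3.91%) and 1 lower (3.78%). None was called without ATV-TfR replicate 1 or 2, only Ehd4 was without control IgG replicate 2, and 4 or 3 were higher beside Ehd4 without ATV-CD98hc replicate 1 or 2, where 669 of 15836 and 605 of 16977 genes were higher. RLE factors took Ap2m1 to an adjusted p of 0.059, and DESeq2 did not call it. Ap2m1 was at 45.2 and 50.3 CPM in the low bin, and among cells with at most 2 UMIs of other classes' markers medium minus negative gave -0.14. In low minus negative of ATV-TfR edgeR called none (all genes 1.37%), 2, Dnm1 and Ehd4, had an unadjusted p below 0.05 (5.68%) and DESeq2 called Ehd4 lower (-1.13, adjusted p = 0.019; all genes 1.61%). In low minus negative of ATV-CD98hc edgeR called none (2.77%), as did DESeq2, and 4, Ap2a2, Dab2, Snx5 and Ehd4, had an unadjusted p below 0.05 (13.9%). The block called Dab2 higher there (0.39, adjusted p = 0.023; all genes 3.10%). Without ATV-CD98hc replicate 1, 1 was higher and 2 lower (325 and 233 of 15836 genes), and without replicate 2, 1 was higher (408 of 16977).

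Of the microglia-like cells kept, ATV-TfR had 4302 in its negative and 869 in its low bin, while ATV-CD98hc had 917 and 4119. Each bin is a library of its own, so these counts do not give the share of microglia in each bin. In microglia-like cells 43 members were tested. Itsn1 was at 22.1 and 22.9 CPM in the ATV-TfR negative and 52.2 and 63.1 CPM in its low bin, and at 24.7 and 17.6 against 52.9 and 90.2 CPM in ATV-CD98hc, without overlap in either. The differences were 1.42 (SE 0.23, adjusted p = 2.4e-05) and 1.66 (SE 0.25, adjusted p = 1.6e-05). In ATV-TfR Ehd1 was also higher (2.49, SE 0.75, adjusted p = 0.027), from 12 and 4 UMIs in the negative and 9 and 11 UMIs in the low bin, and not without either ATV-TfR pool (adjusted p = 0.35 and 0.74), with stricter doublet removal (2.26, adjusted p = 0.078) or by DESeq2 (0.068). So 2 members were called higher in ATV-TfR (all genes 10.3%) and 1 in ATV-CD98hc (all genes 8.21%). Without ATV-TfR replicate 1 or 2, 1 was called in ATV-TfR, and without ATV-CD98hc replicate 2, 3 were higher and 2 lower there, where 1720 and 429 of 13112 genes were. Without ATV-CD98hc replicate 1, 3 members were higher in ATV-TfR (1432 of 11061 genes) and 2 in ATV-CD98hc (785). The 10 astrocyte markers summed to 604 to 724 CPM in the negative bins of these cells and 2641 to 5333 CPM in the low bins, all 10 detected in each, and Itsn1 was at 268 CPM in astrocyte-like cells. Among cells with at most 2 UMIs of other classes' markers, Itsn1 gave 0.21 (adjusted p = 0.99) in ATV-TfR and -0.47 (adjusted p = 1.0) in ATV-CD98hc.

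**Figure D5:**
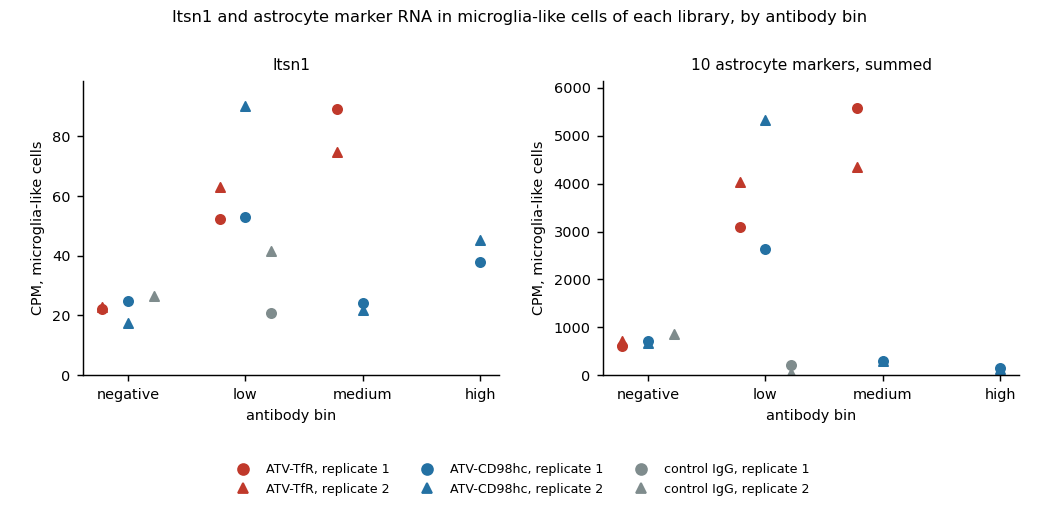
Points are the level (CPM) of Itsn1 (left) and the summed level of 10 astrocyte markers (right) in the microglia-like cells of each library, by antibody bin, with the colours and symbols of the treatments and replicates. The libraries of the ATV low bins and of the ATV-TfR medium bin are high in both panels.

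Another 95 genes of these pathways, listed by name and not by their values, were read from the same fits. Against microglia-like cells 33 were higher and 38 lower in endothelial-like cells, against oligodendrocyte-like cells 35 and 38, and against astrocyte-like cells 39 and 32. Of all genes tested, 34.7% were higher and 34.4% lower against microglia-like cells, 32.9% and 32.3% against oligodendrocyte-like cells and 36.3% and 43.0% against astrocyte-like cells. Ehd2, the EHD ATPase of caveolae, was higher than in oligodendrocyte-like (5.76, SE 0.19, adjusted p = 6.4e-30) and astrocyte-like cells (4.78). Ston2 (-5.84), a stonin that links synaptotagmin to AP-2, and Bin1 (-5.32), an amphiphysin that curves membrane, were lower than in microglia-like cells. Dnajc6, the neuronal uncoating factor auxilin (-9.13), and Amph (-8.49) were lower than in oligodendrocyte-like cells. Of 25 other ESCRT genes, 15 were higher and 4 lower than in microglia-like cells, and the same numbers held against astrocyte-like cells. In high minus negative of endothelial-like cells 4 of the 93 tested were lower in ATV-TfR and none higher (all genes 4.28% and 1.85%), namely Amph, Dnajc6, Arrb1 (-2.01) and Ehd2 (-1.01, SE 0.19, adjusted p = 0.0014). In ATV-CD98hc 2 were lower, Ston2 and Ehd2 (-1.01, SE 0.21, adjusted p = 0.0036), where 620 of 15082 genes were called in either direction. In microglia-like cells 7 of the 83 tested were higher in the low bin of each ATV, near the 10.3% and 8.21% of all genes, and none was lower. Among them were Sgip1 (1.65 and 1.79) and Ap3b2 (3.20 and 3.11), both lower in endothelial-like than in astrocyte-like cells.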

How the data were processed

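The 23 libraries were deposited as 1 matrix of UMI counts per gene and cell, with gene and barcode lists and a library index (the other deposited files). Cell Ranger 7.1.0, Seurat 4 and 5 and the builds GRCm38 and mm10 are named per the submitters' processing notes; for chemistry, cell calling, intron counting and annotation release, nothing is stated (not given in the sources used here). Cells with at least 500 genes, 800 UMIs and at most 10% mitochondrial UMIs were kept, and doublets were removed with Scrublet (scanpy 1.11.5), by a score percentile of 94 in 7 libraries where its threshold failed. Cells were clustered on 2000 variable genes, 50 components and 15 neighbours (Leiden, igraph 0.11.9, resolution 1). The variable genes were picked after the members and the other listed genes of these pathways had been left out. Clusters were named by marker lists, and the naming rule was completed after clusters were seen, so classes may differ from the study's own.

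Counts were summed per class and library, or per class and pool between classes and treatments, from at least 20 cells. They were tested with edgeR 4.0.16 (quasi-likelihood, TMM factors, two-sided, R 4.3.3), with Benjamini-Hochberg adjustment over all genes tested, threshold 0.05; DESeq2 1.42.0 was an alternative. p-values rest on the spread between pools within groups, estimated over all groups of a fit, also those outside the contrast. Groups with 1 pool add nothing to that estimate, and the main fit had no term for the pool. UMI intervals would cover counting error only. The members, the lists and the rule for named genes (in each comparison up to 8 called members per direction with the largest change, 19 members always, sets of paralogues, and up to 4 called genes of the other list) were chosen with earlier results of these data known, and genes with an unadjusted p or an alternative's call only were named after their values were seen. Libraries of 1 pool share animals, which pairs them: over endothelial-like cells 12 of 13 pairs of bins had deviations correlated above 0.1 (0.093 to 0.963, median 0.307), as had 9 of 12 over astrocyte-like (from -0.355, median 0.322) and 5 of 9 over microglia-like cells (from -0.035, median 0.118). The edgeR test of endothelial-like cells was also run on simulated data, and no result given here rests on that run.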

Additional observations from a re-analysis of the deposited data

Results flagged for a closer look

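Of 180 sets of pool values, each a member in 1 of 4 classes, 21 (11.7%) had a pool set apart from the others by the gap to its neighbour relative to the range. For values of equal spread from 1 group, this rule flags about 1 in 20. The pools differ in treatment, genotype and depth, so that rate is no measure of chance here. Control IgG replicate 1 was that pool in 18 and control IgG replicate 2 in 3. In endothelial-like cells, replicate 1 was low for Dnm1 (0.214 CPM, others 0.811 to 1.08) and Snx2 (73.9 CPM, others 81.5 to 84.1). The Dnm1 value rests on 1 UMI, in the low bin, and lies at the floor of counting.

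The 16 sets in microglia-like cells were all of control IgG replicate 1, whose sum holds 30 cells. It was high for Clta (883 CPM), Cltb (48.5), Ap2s1 (77.6), Ap1m1 (38.8), Vps4a (38.8), Vps26a (87.4) and Vps29 (126). It was low for Ap2b1 (29.1 CPM), Ap3d1 (29.1), Dnm2 (126), Epn2 (9.71), Itsn2 (77.6), Snx17 (67.9) and Snx27 (19.4), and at 0 for Ap1b1 and Dab2.

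Control IgG replicate 2 was low for Dnm2 (185 CPM, others 197 to 198) and high for Ehd3 (21.8 CPM, others 15.7 to 17.1) in oligodendrocyte-like cells, and high for Vps26b (21.7 CPM, others 19.7 to 20.2) in astrocyte-like cells.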

How the results depend on the processing

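Of 295 counts of called members under other settings, 235 stayed within 1.5 times the reported count. Of 1604 values of named genes, 1476 kept their direction and side of the threshold, 98 lost the call, 20 gained it and 10 changed sign. In endothelial-like high minus negative of ATV-TfR 2 members were called with RLE factors, no factors, the stricter filter, Leiden resolution 0.5 or within cluster 8 (added after seeing the data), and 1 with stricter doublet removal. In that of ATV-CD98hc 1 was called with RLE factors, no factors, no filter, the stricter filter, DESeq2 or within cluster 8. DESeq2 called 2 in ATV-CD98hc high minus low and 1 in ATV-TfR against control IgG pools. In astrocyte-like cells 1 was called in ATV-TfR low minus negative with no filter, DESeq2 or Leiden resolution 0.5, 1 in ATV-TfR medium minus negative with RLE factors, no factors or the stricter filter, and 2 (no filter) or 1 (Leiden resolution 0.5) in ATV-CD98hc low minus negative. In microglia-like ATV-TfR low minus negative the stricter filter called 1. Cells with few UMIs of other markers gave 0 calls in both high minus low contrasts, in astrocyte-like medium minus negative and in both microglia-like contrasts, and no value for high minus negative. The cause of these changes was not tested.

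With the pool as a replicate block, 34, 35 and 41 members were called against microglia-like, oligodendrocyte-like and astrocyte-like cells and 4 in ATV-TfR high minus negative. The block called 2 in ATV-CD98hc high minus negative, 6 and 5 in high minus low of ATV-TfR and ATV-CD98hc, 1 in control IgG, 4 in astrocyte-like ATV-TfR medium minus negative and 1 in ATV-CD98hc low minus negative, and it changed no other count by over 1.5 times.

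Leaving out each pool gave 29 to 36, 24 to 33 and 38 to 42 calls between classes, 0 to 4 (ATV-TfR) and 0 (ATV-CD98hc) in high minus negative, 0 to 6 and 0 to 4 in high minus low, 0 to 1 in control IgG, 0 to 6 between high bins, 0 to 1 for ATV-TfR against control IgG pools and 0 for the other pool contrasts and the difference of contrasts. It gave 0 to 0, 0 to 5 and 0 to 3 in astrocyte-like and 1 to 5 and 1 to 2 in microglia-like cells.

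Against microglia-like cells, leaving out each pool took Ap1b1 from -1.62 to 2.98 and Dnm1 from -0.98 to 1.20, both positive without control IgG replicate 2. The sign also changed for Cltc (-0.00997) and Ehd1 (0.10) against oligodendrocyte-like cells in negative and low bins only. It changed for Snx3 in ATV-CD98hc high minus low with no factors (-0.0047) and without ATV-CD98hc replicate 2 (-0.081, or 0.26 without replicate 1). Among cells with few UMIs of other markers it changed for Ehd4 in ATV-TfR high minus low (0.14), Ap2m1 in astrocyte-like ATV-TfR low (-0.42) and medium (-0.14) minus negative and Itsn1 in microglia-like ATV-CD98hc low minus negative (-0.47). The high minus negative contrasts rest on few cells, 131 and 119 endothelial-like cells in the negative ATV bins, and the part of depth was not tested.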
